A study of Mus musculus with 55 samples.

Results

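The 9 genes described here are Inha, Inhba, Inhbb, Fst, Amh, Amhr2, Foxl2, Fshr and Serpine2, chosen by name as genes of inhibin and activin signalling and of granulosa cell identity, from 51734 genes counted in each of 52 single oocytes. The choice was made with earlier results of these data known. The study asked how mutations in the ADD domain of the de novo DNA methylation enzyme DNMT3A and of its cofactor DNMT3L affect germ cells, and RNA-seq of single oocytes was 1 of its measurements. Fully grown oocytes (FGOs, still in prophase arrest) were 18 of wild type, 8 homozygous for Dnmt3L D124A (Dnmt3L ADD/ADD, here 3L-ADD), 8 homozygous for Dnmt3a ADA (Dnmt3a ADD/ADD, here 3A-ADD) and 8 homozygous for both (double mutant, DM). A further 10 wild-type oocytes were in metaphase of the second meiotic division (MII), and these differ from FGOs in stage and not in genotype. FGOs came from ovaries of females aged 10 to 12 weeks by needle puncture, with cumulus cells washed off in a capillary, while the age of the MII donors is not in the labels. A single oocyte went into each SMART-Seq HT library. The alleles are germline knock-ins, not limited to the oocyte. They change protein sequence, so transcript levels do not check the genotype labels. Which oocytes shared a donor is not given, and p-values therefore measure the spread between oocytes.

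Inhibins and activins are dimers of the TGF-beta family. The alpha subunit (Inha) joined to a beta subunit (Inhba or Inhbb) makes an inhibin, which lowers pituitary FSH secretion, whereas beta subunits joined to each other make activins, which raise it and also act within the follicle. In the ovary these subunits, the activin-binding protein follistatin (Fst), anti-Müllerian hormone (Amh) and its receptor (Amhr2), the FSH receptor (Fshr) and the transcription factor Foxl2 are classical products of granulosa cells, the somatic cells that surround and contact the oocyte, and Foxl2 is needed to keep granulosa identity. Serpine2, an inhibitor of serine proteases, is made by granulosa and cumulus cells among many other cell types.

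The total count per library ran from 7832458 to 23739871. Values are CPM, each count scaled to a common library size, after edgeR's TMM scaling over all 52 libraries, and levels of different genes are compared only as CPM per kilobase of exon. Low counts were mostly even (60.9% to 70.5% of counts from 1 to 20 per library), so a count of 2 may be a single read pair. The libraries labelled oocytes held oocyte RNA at high levels: Gdf9, a growth factor made by oocytes, averaged 2139 CPM in wild-type FGOs (± 162 SD, n = 18), and none of the 16 oocyte markers was at 0 in any group. FGO libraries fell into a lower and a higher set by share of mapped reads, as listed in the supplementary information. Wild-type FGOs 1 to 8, all 8 double mutants and 3 3A-ADD FGOs were in the lower set, so values against each set of wild-type FGOs are given where they differ.

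In wild-type FGOs, 8 of the 9 genes were detected at low level and varied widely, and Serpine2 stood apart. Per kilobase of exon, Serpine2 was highest at 22.5 ± 2.54 CPM (SD, n = 18), against 1053 ± 80.0 for Gdf9. Inha followed with 6.65 ± 3.78, and it lay below Serpine2 and above Inhbb (2.76 ± 1.99) in 18 of 18 oocytes. Below Inha most neighbours in the order could not be separated: Inhbb exceeded Inhba (1.70 ± 1.10) in 11 of 18 oocytes, Inhba exceeded Amh (1.29 ± 0.891) in 12, and Amh exceeded Fst (1.10 ± 0.572) in 11. Fst exceeded Foxl2 (0.461 ± 0.305) in 16 of 18, Foxl2 exceeded Fshr (0.393 ± 0.376) in 11, and Fshr exceeded Amhr2 (0.310 ± 0.248) in 12. The coefficient of variation between wild-type oocytes was 11.3% for Serpine2 and between 52.02% (Fst) and 95.6% (Fshr) for the other 8 genes. Since the values are totals over whatever was in the tube, fewer cells of a type and less RNA per cell cannot be told apart.

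**Figure D1:**
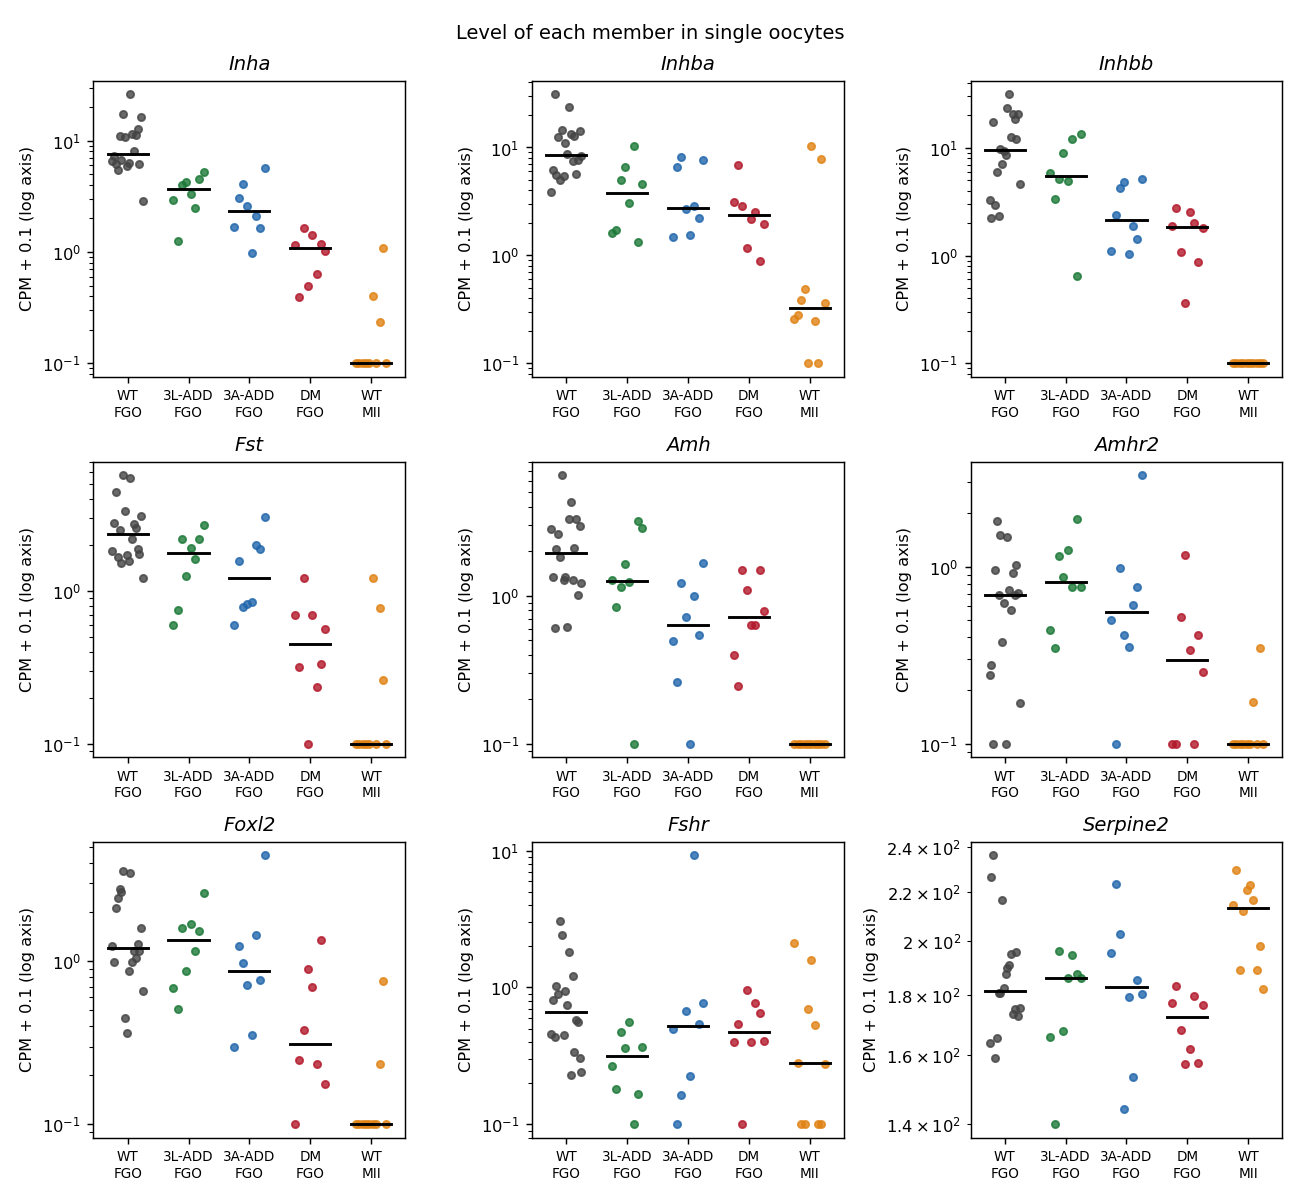
Level of each of the 9 genes in single oocytes, as CPM + 0.1 on a log axis that differs between panels. Each point is 1 oocyte and the bar is the group median (18 wild-type FGOs, 8 FGOs of each mutant genotype, 10 wild-type MII oocytes). Inha and Fst in all double mutant FGOs lie below every wild-type FGO, and Serpine2 stays within 140 to 236 CPM.

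The inhibin alpha subunit gene Inha (chr1:75507077-75510366, mm10, plus strand) was lower in all 3 mutant genotypes. It ranged from 2.79 to 25.9 CPM in wild-type FGOs, with a median of 7.56 and a mean of 9.82 ± 5.58 (SD, n = 18). In 3L-ADD FGOs the lowest, median and highest values were 1.14, 3.55 and 5.18 CPM (mean 3.40 ± 1.28, n = 8). In 3A-ADD FGOs they were 0.880, 2.25 and 5.53 CPM (mean 2.62 ± 1.52, n = 8). Every single mutant oocyte lay under the wild-type median, and 2 of 8 and 5 of 8 lay under the lowest wild-type oocyte. The double mutants carried 0.293, 0.986 and 1.53 CPM (mean 0.892 ± 0.444, n = 8), with 4 to 22 counts in each, and all 8 lay under all 18 wild-type FGOs. The fold changes against wild type were 2.91-fold lower in 3L-ADD (log2 change -1.54 ± 0.32 SE, edgeR quasi-likelihood test with Benjamini-Hochberg adjustment, p = 0.00238), 3.69-fold lower in 3A-ADD (-1.89 ± 0.32, adjusted p = 9.68e-05) and 10.97-fold lower in the double mutant (-3.46 ± 0.37, adjusted p = 1.07e-07). In the double mutant Inha ranked 1 by p among the 15726 genes tested. Only 0.134% of these genes (21) had all 8 double mutants under all 18 wild-type FGOs, Inha and Fst among them.

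The beta subunit genes were also lower, with more spread between oocytes. Inhba (chr13:16011851-16031621, plus strand), whose product forms activin A, ranged from 3.79 to 30.9 CPM in wild-type FGOs (median 8.40, mean 10.8 ± 7.004, n = 18). Its lowest, median and highest values were 1.22, 3.71 and 10.1 CPM in 3L-ADD, 1.39, 2.67 and 8.03 CPM in 3A-ADD and 0.779, 2.26 and 6.74 CPM in double mutant FGOs. All 3 ranges overlapped the wild type, although 7 of 8 double mutants lay under the lowest wild-type oocyte. The changes were 2.62-fold (log2 -1.39 ± 0.40, adjusted p = 0.0287), 2.65-fold (-1.41 ± 0.39, adjusted p = 0.0125) and 4.20-fold lower (-2.07 ± 0.42, adjusted p = 0.00136). The first of these calls was lost without 3L-ADD replicate 1, 2 or 7 (log2 -1.28, -1.27 and -1.25, adjusted p = 0.0539, 0.0620 and 0.0727), and both single mutant calls were lost when the MII libraries shared the fit (adjusted p = 0.109 and 0.0639). The annotation places 2 genes of the opposite strand over Inhba, AC121583.1 and AC154742.1, at 0.274 and 0.109 CPM in wild-type FGOs, and their reads cannot be told from those of Inhba because the strand setting of the counting is not given.

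Inhbb (chr1:119415465-119422248, minus strand), whose product forms activin B, ranged from 2.14 to 31.2 CPM in wild-type FGOs (median 9.38, mean 11.7 ± 8.47, n = 18). The level depended on the set of wild-type FGOs, with 6.26 ± 5.20 CPM in oocytes 1 to 8 and 16.1 ± 8.16 CPM in oocytes 9 to 18. The mutant values were 0.542, 5.41 and 13.3 CPM (lowest, median, highest) in 3L-ADD, 0.942, 2.04 and 5.09 CPM in 3A-ADD and 0.266, 1.75 and 2.64 CPM in the double mutant. Inhbb fell 4.31-fold in 3A-ADD (log2 -2.11 ± 0.47, adjusted p = 0.00180) and 7.52-fold in the double mutant (-2.91 ± 0.50, adjusted p = 0.000203). Against wild-type oocytes 1 to 8 alone the log2 changes were -1.20 (adjusted p = 0.0594) and -1.9955 (adjusted p = 0.0343), and against oocytes 9 to 18 alone they were -2.55 and -3.36. In 3L-ADD the change was not called against all wild-type FGOs (-0.82 ± 0.43, adjusted p = 0.252). It was 0.09 against oocytes 1 to 8 and -1.27 against oocytes 9 to 18 (adjusted p = 0.906 and 0.0417), so its direction rested on which wild-type oocytes were used.

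The upstream sequences of the beta subunit genes differ in CG dinucleotides, the main sites that DNMT3A methylates with DNMT3L as its cofactor. The 250 bases before the RefSeq start of each gene (GRCm38.p6, strand of the gene, 5′ to 3′) are shown. This start coincides with the start of the gene in the annotation used here. The same holds for Amhr2, whose window has 5 CG dinucleotides and is not shown. CG dinucleotides are in capitals.
Inhba, chr13:16011601-16011850: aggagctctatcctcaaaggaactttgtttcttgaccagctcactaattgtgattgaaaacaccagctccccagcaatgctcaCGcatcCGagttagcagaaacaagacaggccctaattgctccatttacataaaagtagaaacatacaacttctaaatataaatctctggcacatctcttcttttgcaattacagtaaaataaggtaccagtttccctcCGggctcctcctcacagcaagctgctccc
Inhbb, chr1:119422249-119422498: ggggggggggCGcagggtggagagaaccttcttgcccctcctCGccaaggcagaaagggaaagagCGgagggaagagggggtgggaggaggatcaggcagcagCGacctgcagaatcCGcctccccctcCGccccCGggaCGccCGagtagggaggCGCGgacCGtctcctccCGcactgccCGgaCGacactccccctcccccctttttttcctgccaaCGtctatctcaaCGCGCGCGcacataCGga
The Inhba window holds 3 CG dinucleotides, and 71.0% of 32851 RefSeq promoter windows of this length hold at least as many, against a median of 6. The Inhbb window holds 21, a number reached by 16.3% of the windows. Promoter windows were found for 7 of the 9 genes. Methylation was not analysed here, so the sequences describe the genes and not their state in these oocytes.

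Fst (chr13:114452262-114458730, minus strand), which encodes the protein that binds activin and blocks its action, fell in the double mutant. Wild-type FGOs ranged from 1.12 to 5.65 CPM (median 2.25, mean 2.57 ± 1.34, n = 18). The lowest, median and highest values were 0.504, 1.67 and 2.59 CPM in 3L-ADD, 0.497, 1.11 and 2.96 CPM in 3A-ADD and 0, 0.348 and 1.11 CPM in double mutant FGOs. The single mutants overlapped the wild type, and the 8 double mutants did not, although the highest of them (16 counts) came close to the lowest wild-type oocyte. The double mutant change was 6.04-fold lower (log2 -2.60 ± 0.41, adjusted p = 6.05e-05). The 3L-ADD change was -0.72 ± 0.35 (adjusted p = 0.215) and the 3A-ADD change -0.92 ± 0.36 (adjusted p = 0.0692), which became -1.21 (adjusted p = 0.0264) without 3A-ADD replicate 8, the oocyte with the highest value of its group for Inha, Inhbb, Fst, Amh, Amhr2 and Foxl2.

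Amh (chr10:80805243-80807648, plus strand) encodes the hormone that restrains follicle recruitment and FSH sensitivity. It ranged from 0.503 to 6.45 CPM in wild-type FGOs, 6 to 97 counts (median 1.85, mean 2.15 ± 1.49 CPM, n = 18). The means were 1.44 ± 1.04 in 3L-ADD, 0.652 ± 0.520 in 3A-ADD and 0.751 ± 0.472 CPM in double mutant FGOs (n = 8 each), and all 3 ranges overlapped the wild type. Amh fell 3.19-fold in 3A-ADD (log2 -1.67 ± 0.49, adjusted p = 0.0170) and 2.88-fold in the double mutant (-1.53 ± 0.49, adjusted p = 0.0344), and its 3L-ADD change was -0.58 ± 0.45 (adjusted p = 0.462). The double mutant call was lost against wild-type oocytes 1 to 8 alone (adjusted p = 0.181) and without any 1 of 6 oocytes, wild-type replicate 12 or double mutant replicate 1, 2, 4, 5 or 8 (log2 -1.37 to -1.59, adjusted p = 0.0501 to 0.0674).

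Its receptor gene Amhr2 (chr15:102445367-102454630, plus strand) was near the limit of detection. Wild-type FGOs held 0 to 30 counts, 0.620 ± 0.497 CPM (n = 18), and 2 of 18 held none. The mutant means were 0.829 ± 0.487, 0.774 ± 1.01 and 0.273 ± 0.356 CPM in 3L-ADD, 3A-ADD and double mutant FGOs, and each range overlapped the wild type. No change was called, the log2 values being 0.38 ± 0.56, 0.33 ± 0.56 and -1.17 ± 0.64 (adjusted p = 0.729, 0.729 and 0.219). The 3A-ADD value was -0.55 without replicate 8, which held 57 counts where the other 7 held 0 to 14.

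Foxl2 (chr9:98955288-98958543, plus strand) was called lower in the double mutant and not in the single mutants. Its lowest, median and highest values were 0.261, 1.10 and 3.46 CPM in wild-type FGOs (mean 1.4998 ± 0.992, n = 18) and 0, 0.212 and 1.25 CPM in the double mutant (mean 0.410 ± 0.435, n = 8). The ranges overlapped, with 4 of 8 double mutants under the lowest wild-type oocyte. The double mutant change was 3.63-fold lower (log2 -1.86 ± 0.52, adjusted p = 0.0179). The single mutants stood at 1.23 ± 0.681 and 1.18 ± 1.34 CPM (3L-ADD and 3A-ADD), with log2 changes of -0.29 ± 0.46 and -0.31 ± 0.45 (adjusted p = 0.752 and 0.678). 3A-ADD replicate 8 held 78 counts and the other 7 of its group 2 to 24, and without it the change was -1.02 (adjusted p = 0.134). The opposite-strand gene Foxl2os (0.863 CPM in wild-type FGOs) overlaps the first bases of Foxl2, and reads there cannot be told apart.

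Fshr (chr17:88985170-89200612, minus strand), the receptor through which FSH drives follicle growth, was not called in any comparison. Wild-type FGOs held 2 to 50 counts, 0.127 to 2.96 CPM (median 0.559, mean 0.817 ± 0.781, n = 18). All 3L-ADD FGOs held 5 counts or fewer and lay under the wild-type median, 0 to 0.456 CPM, a change of -2.05 ± 0.76 (adjusted p = 0.0969). DESeq2 and edgeR's exact test put this difference past the threshold (adjusted p = 0.0447 and 0.0291). The wild-type mean depended on the set, with 1.10 ± 0.996 CPM in oocytes 1 to 8 and 0.595 ± 0.507 CPM in oocytes 9 to 18. All 3L-ADD FGOs (mean 0.209 ± 0.158 CPM) were in the mapping set of oocytes 9 to 18, to which they lay closer. Replicate 6 of 3A-ADD held 162 counts, 9.11 CPM, where the other 7 held 0 to 12. With it the 3A-ADD change was 0.83 ± 0.57 (adjusted p = 0.338), and without it -1.32 (adjusted p = 0.121). The double mutant values were 0, 0.374 and 0.864 CPM (lowest, median, highest) and the change -0.93 ± 0.66 (adjusted p = 0.357).

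Serpine2 (chr1:79794197-79861180, minus strand) differed little between genotypes. The means were 187 ± 21.1 CPM in wild-type (n = 18), 178 ± 19.0 in 3L-ADD, 183 ± 25.6 in 3A-ADD and 169.98 ± 10.3 in double mutant FGOs (n = 8 each), from at least 1299 counts per oocyte. The log2 changes were -0.07 ± 0.07, -0.03 ± 0.07 and -0.14 ± 0.07 (adjusted p = 0.548, 0.796 and 0.146). The double mutant difference has an interval of 2 SE from -0.28 to -0.0095, so a 2-fold change lies outside it.

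**Figure D2:**
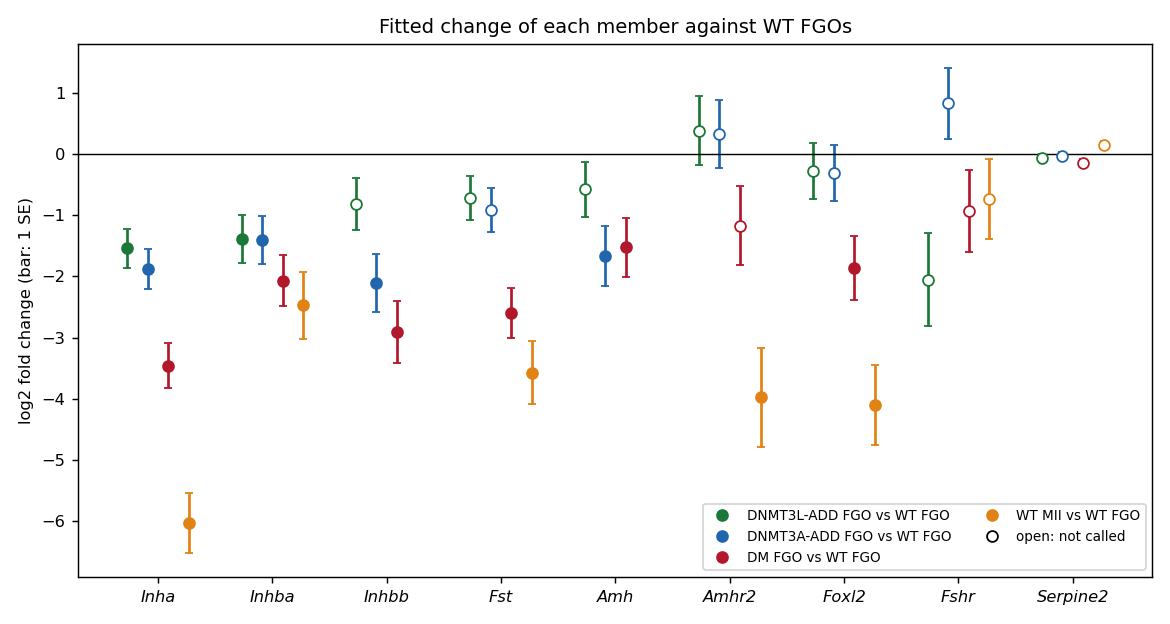
Fitted log2 fold change of each gene against wild-type FGOs (points, with bars of 1 SE from edgeR), for the 3 mutant genotypes and for wild-type MII oocytes. Filled points passed an adjusted p of 0.05 and a 2-fold change; Inhbb and Amh in MII oocytes are not drawn because all 10 MII oocytes held no count. Inha falls from -1.54 and -1.89 in the single mutants to -3.46 in the double mutant, and Serpine2 stays between -0.14 and 0.15.

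Counted together, 2 of the 9 genes were called lower in 3L-ADD, 4 in 3A-ADD and 6 in double mutant FGOs, and none was called higher. All 9 had passed the filter on low counts. Over all 15726 genes tested, 0.591%, 1.76% and 1.48% were called lower in these comparisons. The median log2 change of the 9 genes was -0.72, -0.92 and -1.86, against -0.03, -0.03 and -0.01 over all genes. The 3 comparisons share their wild-type oocytes and are not independent of each other. Because the 9 genes were chosen with earlier results of these data known, their counts describe them and are not an independent test.

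Comparing the genotypes directly, Inha was lower in the double mutant than in either single mutant, 2.97-fold against 3A-ADD (log2 -1.57 ± 0.40, adjusted p = 0.00287) and 3.77-fold against 3L-ADD (-1.91 ± 0.40, adjusted p = 0.000949). Fst was lower by 3.19-fold and 3.67-fold (-1.68 ± 0.45 and -1.87 ± 0.45, adjusted p = 0.00493 and 0.00341). Inhbb was lower than in 3L-ADD (4.26-fold, -2.09 ± 0.54, adjusted p = 0.00531), and its difference from 3A-ADD was -0.80 ± 0.54 (adjusted p = 0.265). Foxl2 passed narrowly against both (-1.55 ± 0.58 and -1.57 ± 0.58, adjusted p = 0.0377 and 0.0442), and leaving out 1 oocyte at a time ended the call in 7 of 16 fits against 3A-ADD and in 10 of 16 against 3L-ADD. The counts of 3 and 4 of 9 genes stand beside 1.48% and 1.16% of all genes called lower against 3A-ADD and 3L-ADD. Against 3A-ADD they rested on few oocytes: without 3A-ADD replicate 8 the Foxl2 difference was -0.84 (adjusted p = 0.267), and without replicates 6 and 8 together Inha alone was called, at -1.33 (adjusted p = 0.0184), with Fst at -1.18 (adjusted p = 0.0629).

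Between the 2 single mutants none of the 9 genes was called, and edgeR called 0.00% of all genes (DESeq2 called 22 genes, none of the 9). Without adjustment, 1012 genes had a p under 0.05, and 2 of the 9 were among them. These were Fshr, higher in 3A-ADD by 2.88 ± 0.83 on the log2 scale and by 0.73 without replicate 6, and Inhbb, lower by 1.29 (-1.29 ± 0.51, adjusted p = 0.576). The interval of 2 SE for Inha ran from -1.07 to 0.38, a range that holds a 2-fold lower but not a 2-fold higher level in 3A-ADD. The change in the double mutant was also compared with the sum of the single mutant changes on the log2 scale. This non-additive term was called for none of the 9 genes and for 35.6% of all genes. For Inha it was -0.03 ± 0.40 (adjusted p = 0.966), with an interval of 2 SE from -0.84 to 0.78. Amhr2 and Fshr each passed when 1 oocyte was left out, Amhr2 without double mutant replicate 4 (-2.60, adjusted p = 0.0310) and Fshr without 3A-ADD replicate 6 (2.43, adjusted p = 0.0310).

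In MII oocytes most of the 9 transcripts were at or near 0. Inha had no count in 7 of 10 MII oocytes, 12 counts in replicate 9, 4 in replicate 6 and 2 in replicate 8, at most 0.980 CPM, below every wild-type FGO. Inhbb and Amh had no count in any of the 10. Taking 3 counts in the shallowest MII library as the floor (0.299 CPM), Inhbb was at least 39.2-fold lower and Amh at least 7.20-fold lower than the mean of wild-type FGOs. Amhr2 was at 0 in 8, Foxl2 in 8 and Fst in 7 of the 10 oocytes. Inhba behaved differently in a pair of oocytes, with 136 counts (10.2 CPM) in replicate 6 and 95 (7.76 CPM) in replicate 9, inside the range of FGOs, where the other 8 held 0 to 5 counts.

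The log2 changes from wild-type FGO to MII oocyte were -6.02 ± 0.49 for Inha (adjusted p = 6.6e-15), -4.10 ± 0.65 for Foxl2 (adjusted p = 1.69e-06), -3.98 ± 0.81 for Amhr2 (adjusted p = 0.000111), -3.57 ± 0.52 for Fst (adjusted p = 2.36e-07) and -2.47 ± 0.55 for Inhba (adjusted p = 0.000342). Inhbb and Amh also passed (adjusted p = 3.92e-12 and 1.25e-09), so that 7 of the 9 genes were called lower, against 9.0% of 15784 genes. The median change of the 9 genes was -3.98 and that of all genes -0.05. Single oocytes moved several of these sizes: without replicate 9 Inha was at -7.33, Foxl2 at -5.86 and Amhr2 at -5.19, without replicate 6 Inhba was at -3.41 and Fst at -4.52, and without both Inhba was at -5.86, with 7 genes called in each case. Fshr had 26 and 20 counts in MII replicates 1 and 6 and 0 to 6 in the other 8, and its change was -0.73 ± 0.65 (adjusted p = 0.387). Serpine2 was 207 ± 16.6 CPM (n = 10), higher than in FGOs by 0.15 ± 0.06 on the log2 scale (adjusted p = 0.0371), under the 2-fold threshold. For scale, the zona pellucida gene Zp3 went from 845 ± 105 to 217 ± 31.3 CPM and Gdf9 from 2139 ± 162 to 2164 ± 64.7. The study's methods describe injection of inhibin antiserum and human chorionic gonadotropin before MII oocytes were taken for fertilization, and whether the sequenced MII oocytes came from such females is not stated. Stage, any such treatment and the route of collection cannot be told apart.

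Across the 18 wild-type FGOs, oocytes with more Inha tended to have more of the other granulosa transcripts. Among the 28 pairs formed by the 8 genes without Serpine2, Spearman's rho had a median of 0.35 and ranged from -0.33 (Inhbb with Fshr) to 0.75 (Inha with Amh), and 26 of 28 were above 0. Inha with Fst reached 0.69 (Pearson's r 0.73 on log2 CPM) and Inhba with Inhbb 0.68, whereas Inha with Fshr was 0.08. Amh and its receptor gene correlated at 0.61, Amhr2 with Foxl2 at 0.59 and Foxl2 with Fshr at 0.50. The 8 pairs with Serpine2 had a median of -0.03, from -0.47 (Amh) to 0.37 (Fst). These values are descriptions over oocytes that share sequencing sets and scaling, and the total count itself had a rho of 0.49 with Inha and 0.59 with Inhbb.

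These medians varied with the oocytes used. Without the 2 oocytes farthest from the median of Inha the median of the 28 pairs fell to 0.20, with 19 of 28 above 0. It was 0.27 within wild-type oocytes 1 to 8 and 0.52 within oocytes 9 to 18. In 3L-ADD, 3A-ADD and double mutant FGOs the medians were 0.30, 0.50 and 0.00 (n = 8 each). In the double mutant, where counts were lowest, Inha and Fst kept a rho of 0.81 and Inhba and Inhbb 0.69, while Amh stood at -0.74 with Inhba and -0.86 with Inhbb. The differences between genotypes were not tested.

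**Figure D3:**
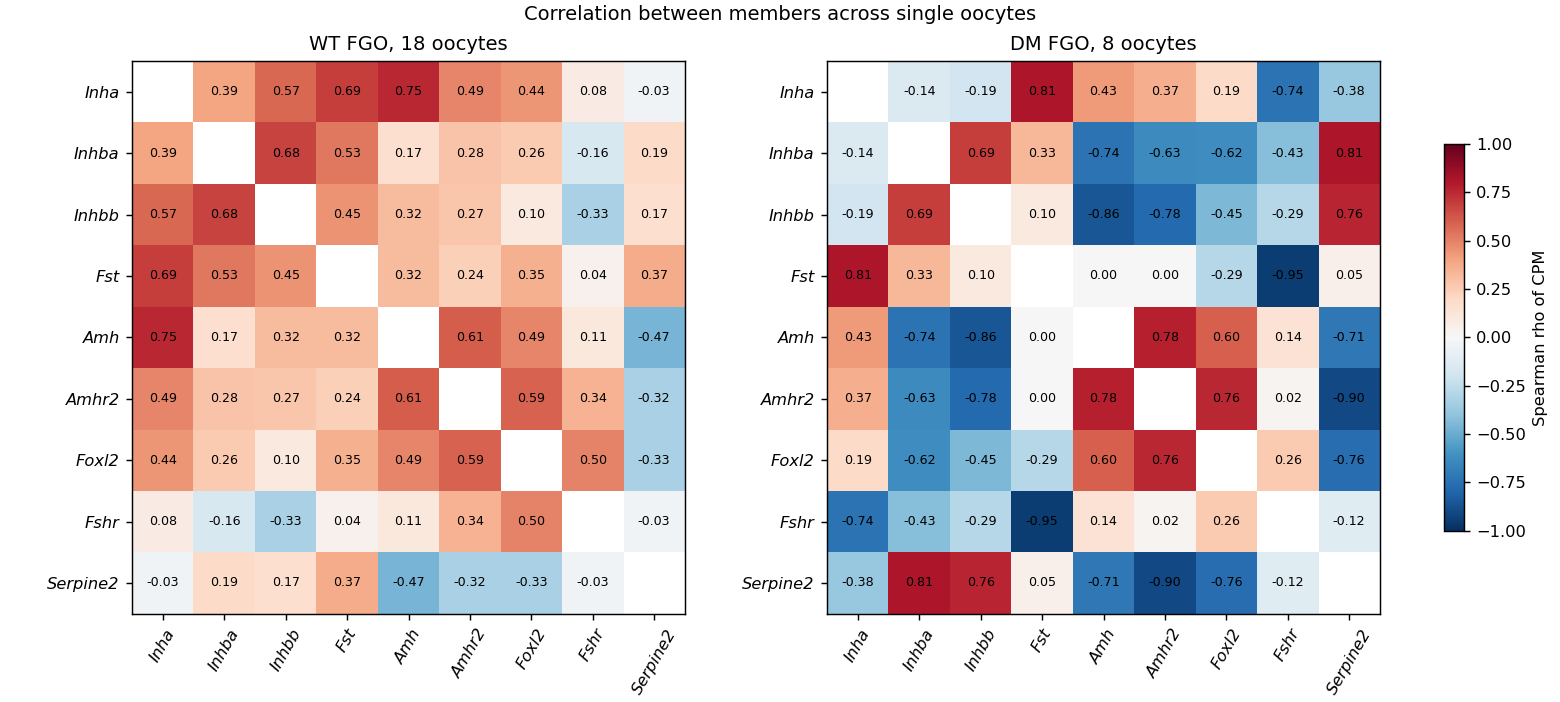
Spearman's rho between the 9 genes across 18 wild-type FGOs (left) and 8 double mutant FGOs (right), from CPM, with red above and blue below 0. In wild type the block without Serpine2 and Fshr is mostly positive, with Inha and Amh at 0.75, and in the double mutant the pairs divide between positive values (Inha with Fst, 0.81) and negative values (Inhbb with Amh, -0.86).

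**Figure D4:**
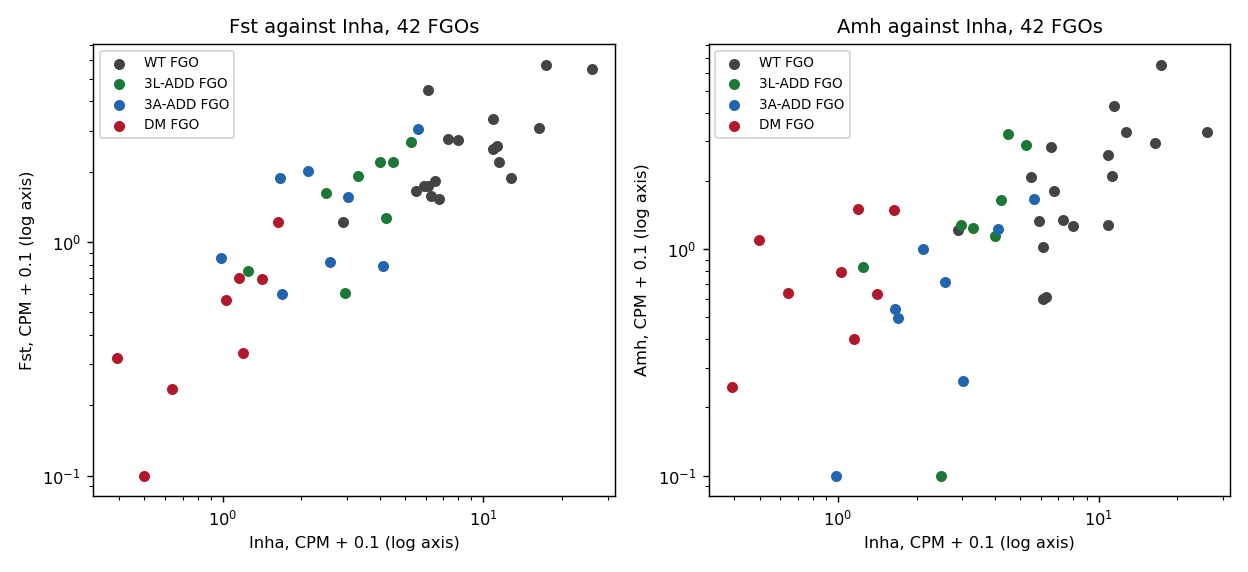
Fst (left) and Amh (right) against Inha in the 42 FGOs, as CPM + 0.1 on log axes, with 1 point per oocyte and colours for genotype. Double mutant FGOs occupy the low end of Inha, at most 1.53 CPM, and the single mutants, at 0.880 to 5.53 CPM, overlap both them and the wild type.

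The genes most like Inha across the 18 wild-type FGOs, by Spearman's rho over 15726 genes, were Fam13a (0.84), Ephx2 (0.82), Smim10l1 (0.82), Hsd17b1 (0.81), Cnmd (0.80), Zfp704 (0.79), Gm9923, Obsl1 (both 0.78), Gja1 (0.77) and Mmp14 (0.77). These are the highest of 15726 values from 18 oocytes, and whether they exceed chance was not tested. Within oocytes 1 to 8 their rho ran from 0.31 (Mmp14) to 0.98 (Zfp704). Within oocytes 9 to 18 it ran from 0.62 (Mmp14) to 0.95 (Hsd17b1). Hsd17b1 encodes the granulosa enzyme that makes estradiol from estrone, Gja1 encodes connexin 43, the gap junction protein between granulosa cells, and Mmp14 encodes a membrane-bound metalloproteinase. Hsd17b1 averaged 3.40 ± 1.74 CPM in wild-type FGOs and 2.36, 0.998 and 0.366 CPM in 3L-ADD, 3A-ADD and double mutant FGOs, and fell 9.13-fold in the last (log2 -3.19 ± 0.45, adjusted p = 1.19e-05). Gja1 fell 4.76-fold there (-2.25 ± 0.39, adjusted p = 0.000175). Ephx2 was lower in 3A-ADD (-1.38, adjusted p = 0.00372) and in the double mutant (-1.44, adjusted p = 0.00525), and its MII difference was 0.39 (adjusted p = 0.465). Fam13a and Obsl1 were also lower in the double mutant (-1.84 and -1.57, adjusted p = 0.00121 and 0.00907). Not called there were Smim10l1 (-1.26, adjusted p = 0.0929), Cnmd (-0.99, 0.0267, under 2-fold), Mmp14 (-0.94, 0.128), Zfp704 (-0.16, 0.325) and Gm9923 (0.21, 0.576). Of the other 8 genes, Amh ranked 14, Fst 42, Inhbb 117, Amhr2 271, Foxl2 395, Inhba 620, Fshr 5372 and Serpine2 8857 in likeness to Inha.

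Of 56 genes of activin, BMP, TGF-beta and AMH signalling (ligands, receptors, SMADs, antagonists and targets), 42 were tested in FGOs, and 0, 0 and 4 were called lower in 3L-ADD, 3A-ADD and double mutant FGOs, against 0.591%, 1.76% and 1.48% of all genes. Among them were the BMP antagonist Grem1, the follistatin-related Fstl5 and the SMAD co-repressor Skil. Fstl5 went from 4.36 ± 2.72 CPM in wild-type (n = 18) to 1.21 ± 1.21 in double mutant FGOs (n = 8), a log2 change of -1.86 ± 0.48 (adjusted p = 0.0105). Skil went from 2.29 ± 1.46 to 1.01 ± 0.602 CPM (-1.19 ± 0.38, adjusted p = 0.0343). Grem1 (1.86 ± 3.93 to 0.190 ± 0.193 CPM) fell by 3.20 on the log2 scale (adjusted p = 0.0168). The median change of the 42 genes was 0.01 in the double mutant. Against the single mutants, Id3, a transcriptional target of BMP signalling, was higher in the double mutant (7.39 ± 5.004 CPM) than in 3A-ADD (1.77 ± 0.856, log2 2.06 ± 0.48, adjusted p = 0.00138) and 3L-ADD (2.33 ± 0.947, 1.65 ± 0.47, adjusted p = 0.0102). Its double mutant difference from wild type was not called. Against 3A-ADD and 3L-ADD, 1 and 2 of the 42 genes were called higher and 2 and 3 lower. Of all genes, 1.48% and 1.16% were called lower there, and the share called higher is not given here. In MII oocytes 7 of 41 were lower than in wild-type FGOs, against 9.0% of all genes. Among them were Id1, Id2, Id3, Smad7, Tgif1 and Gdf11, with Id3 at -2.74 ± 0.45 (adjusted p = 3.69e-06).

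Markers of follicle and ovary cells beside the 9 genes moved in the same comparisons. Of 27 other granulosa and cumulus genes, 20 were tested, and 1, 3 and 8 were lower in 3L-ADD, 3A-ADD and double mutant FGOs while 0, 1 and 1 were higher, the higher gene being Has2. Over all genes tested, 0.591%, 1.76% and 1.48% were called lower in these comparisons, and the same shares stand beside the lists that follow. The share called higher is not given here, so counts of genes called higher have no such reference. Their summed level ran from 252 to 378 CPM in wild-type and from 244 to 283, 224 to 424 and 233 to 279 CPM in the mutants. Ptx3 was at 0 in all FGO groups, and Areg and Ereg, markers of expanding cumulus, were at 0 in both single mutants, with Ereg at 0 in the double mutant too. Of 10 theca and interstitial genes, 9 were tested, and 2 fell in 3L-ADD, 1 in 3A-ADD and 4 in the double mutant, the last including Hsd3b1 (log2 -3.70 ± 0.47, adjusted p = 2.17e-06) and Aldh1a1 (-4.48 ± 0.54, adjusted p = 1.01e-06). The theca gene Cyp17a1 fell in 3L-ADD (-4.69 ± 1.14, adjusted p = 0.00989) and in the double mutant (-5.12 ± 1.17, adjusted p = 0.0046). Insl3, another theca gene, was at 0 in wild-type, 3L-ADD and double mutant FGOs. Their summed level was 54.0 to 156 CPM in wild-type and 50.6 to 86.2 CPM in double mutant FGOs. Of 10 stroma and smooth muscle genes, 4 of 7 tested fell in the double mutant, with Acta2 and Lum at 0 there, and the sums were 222 to 452 CPM in wild-type and 215 to 302 CPM in double mutant FGOs. In 3A-ADD the stroma genes went the other way on balance, with a median log2 change of 0.45 and sums of 340 to 458 CPM, Col1a2 being called higher (2.34) and Acta2 lower (-2.13), and in 3L-ADD none was called. Endothelium and blood genes were called in none of the 3 comparisons with wild type (3 of 10 tested, sums 81.1 to 123.6 and 67.0 to 98.2 CPM), and Hba-a1 and Hbb-bs were at 0 in all 3 mutant groups. None of 16 oocyte genes was called in the mutants against wild type. Their log2 changes were under 0 for 16 of 16 in 3L-ADD (median -0.19) and in 3A-ADD (median -0.28) and for 1 of 16 in the double mutant (median 0.18). Their non-additive term, called without a fold threshold, was higher for 14 of 16, against 35.6% of all genes called in either direction. The sums were 10430 to 15826 CPM in wild-type, 10483 to 13122 in 3L-ADD, 9702 to 12227 in 3A-ADD and 14453 to 16429 CPM in double mutant FGOs. In MII oocytes 10 of 19 granulosa and cumulus, 5 of 9 theca and 4 of 7 stroma genes were lower, against 9.0% of all genes. Yet the MII sums of these lists, 232 to 283, 40.3 to 58.7 and 325 to 452 CPM, overlapped those of wild-type FGOs. A sum therefore need not follow the genes called lower and is not a measure of somatic RNA alone. Across wild-type FGOs the summed granulosa and cumulus genes had a rho of 0.62 with Inha, 0.65 with Foxl2 and -0.15 with Serpine2. With the other members it was 0.55 (Amh), 0.54 (Fst), 0.41 (Amhr2), 0.35 (Inhba), 0.19 (Inhbb) and 0.14 (Fshr). Such values were not limited to the granulosa sum. Foxl2 had a rho of 0.64 with the theca sum and Inhbb 0.70 with the stroma sum, where Inha had 0.32 and 0.18. The part of adhering or carried-over somatic cells in the lower levels of the 9 genes was not tested.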

How the data were processed

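RNA-seq counts per gene were taken for 52 single oocytes. The authors aligned paired reads to mm10 with STAR, and the deposited files hold raw read counts per gene, with both featureCounts and HTSeq named as counters in the sources. The annotation release, strand setting and treatment of multi-mapped reads are not given in the sources used here. The embryo samples of the series were not used here. Gene positions and exon lengths are those in the deposited tables (mm10), and promoter sequences are from RefSeq (GRCm38.p6).

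Groups followed the labels. Genes were filtered with filterByExpr (minimum count 10) and fitted with edgeR 4.0.16 (TMM scaling, glmQLFit and glmQLFTest; R 4.3.3), over 42 FGOs for genotypes (15726 genes) and over 52 oocytes for MII (15784 genes). Genes were called at a Benjamini-Hochberg adjusted p below 0.05 over all genes tested and a fold change above 2, the non-additive term without a fold threshold. The common coefficient of variation was 25.2% in FGOs. Every pair of libraries within a group differed beyond counting noise (chi-square per degree of freedom at least 5.02). The floor covers counting error only. Fits were tested on simulated counts. The named genes were the 9 members, up to 8 called pathway genes per comparison, the 10 genes most like Inha, marker lists, Gdf9 and Zp3. The members and gene lists were chosen with earlier results of these data known. Alternatives were other size factors, DESeq2 1.42.0, edgeR's exact test, no filter, other fitted libraries, a replicate block, the mapping set as a covariate, each set of wild-type FGOs and leaving out each oocyte; leaving out 3A-ADD replicates 6 and 8 or MII replicates 6 and 9 together was added after seeing the data. Values of 1 pathway gene are not reported here.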

Additional observations from a re-analysis of the deposited data

Results flagged for a closer look

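Of 34 combinations of gene and group with 8 or 10 oocytes, 8 held an oocyte whose gap to its neighbour was large against the range of the group by Dixon's test. Its nominal rate of about 1 in 20 is for normally spread values. These are low, skewed values, with most MII oocytes at 0 for Inha, Amhr2 and Foxl2, so the 8 cannot be set against that rate. The highest Fshr value, 9.11 CPM in 3A-ADD replicate 6, stood over a next value of 0.671. 3A-ADD replicate 8 stood apart in Amhr2 (3.19 CPM, next 0.878) and Foxl2 (4.36 CPM, next 1.35). MII replicate 9 stood apart in Inha (0.980 CPM, next 0.300), Amhr2 (0.245 CPM, next 0.0724) and Foxl2 (0.653 CPM, next 0.136). Double mutant replicate 2 stood apart in Inhba (6.74 CPM, next 3.00) and double mutant replicate 4 in Amhr2 (1.06 CPM, next 0.418). Each of the 8 was the highest oocyte of its group. The 18 wild-type FGOs were too many for this test.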

How the results depend on the processing

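Of 522 log2 changes of the 9 genes under alternatives other than leaving out 1 oocyte, 487 kept their direction and their side of the threshold, 17 lost a call, 6 gained one and 12 turned direction. Called genes of the 9 in 3L-ADD fell to 1 with other libraries in the fit, with the replicate block or with the mapping set as a covariate, and ran from 1 to 2 when single oocytes were left out. Without 3A-ADD replicates 6 and 8, chosen after seeing the data, 1 was called in the double mutant against 3A-ADD, and 1 in the non-additive term (0 to 1 leaving out single oocytes). The cause of these changes was not tested.

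Replicate numbers did not pair oocytes: same-numbered deviations correlated from -0.51 to 0.47, and at most 2 of 8 oocytes matched their own number best. Under the replicate block the calls of Inhba in 3L-ADD (adjusted p = 0.0591), Inhbb in 3A-ADD (0.0683) and double mutant (0.0793), Amh in the double mutant (0.143) and Foxl2 between double mutant and 3A-ADD (0.0552) were lost and that of Fst in 3A-ADD (0.0433) gained. The block turned Inhbb in 3L-ADD to 0.0651, Fshr in 3A-ADD to -0.49 and the Inhbb non-additive term to -0.69, and gave 1, 3 and 2 pathway genes in 3L-ADD, 3A-ADD and double mutant.

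Against wild-type FGOs 1 to 8 Inhbb in 3L-ADD was 0.0935. Against FGOs 9 to 18 Foxl2 was 0.0853 in 3L-ADD and 0.0614 in 3A-ADD, and with the mapping set it was 0.17 in 3L-ADD. Without 3A-ADD replicates 6 and 8, Amhr2 was -0.60, Fshr -1.62 and Serpine2 0.0025 in 3A-ADD, Fshr 0.69 between double mutant and 3A-ADD, and the Inha non-additive term 0.21. Leaving out single oocytes gave ranges across 0 for Amhr2 (-0.55 to 0.51) and Fshr (-1.32 to 1.07) in 3A-ADD, Amh (-0.0383 to 0.47) and Fshr (-1.97 to 0.38) between double mutant and 3A-ADD, Inhba (-0.24 to 0.33), Amhr2 (-0.93 to 0.22), Foxl2 (-0.74 to 0.21) and Serpine2 (-0.0094 to 0.0797) between the single mutants, and the non-additive terms of Inha (-0.17 to 0.23), Inhbb (-0.16 to 0.25) and Serpine2 (-0.0609 to 0.0132).

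Called pathway genes against wild type were 3 in 3L-ADD, 3 in 3A-ADD and 2 in the double mutant with FGOs 1 to 8, and 1 in 3A-ADD with FGOs 9 to 18 or DESeq2. Without the filter they were 2 in the double mutant and 5 against 3A-ADD, where leaving out replicates 6 and 8 gave 1. Without the fold threshold they were 4, 7 and 12 in the 3 genotypes, 18 and 22 in the double mutant against 3A-ADD and 3L-ADD, and 18 in MII. Leaving out single oocytes gave 0 to 2 in 3A-ADD, 2 to 5 in the double mutant, and 1 to 5 and 2 to 7 against 3A-ADD and 3L-ADD. The share of all genes called under each of these alternatives is not given here. The shares given above apply the fold threshold, so the counts without it cannot be set against them. Genes with few counts (Amh, Amhr2, Foxl2, Fshr) are limited by depth.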
